A study of Mus musculus with 8 samples.

Results

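The enzymes that break down or rework amino acids in the kidney were followed here as 44 named genes, chosen by pathway: aromatic amino acids, proline and hydroxyproline, D-amino acids, glycine, branched-chain amino acids, lysine, methyl groups and sulfur, and arginine and creatine, with the carnosine-cleaving enzyme Cndp1 and the methyltransferase Inmt beside them. All 44 were found by symbol among the 46517 genes listed, and all 44 had enough reads to be tested. Whole kidneys came from 4 conditional knockout (cKO) mice, Xpr1lox/lox-Pax8-rtTA/LC-1, and 4 Control mice, their Xpr1lox/lox littermates. Both groups carried floxed Xpr1 and drank doxycycline at 2 mg/ml for 2 weeks from 8 weeks of age. Only the cKO mice carried Pax8-rtTA, an activator made in renal tubule cells that needs doxycycline, and LC-1, which supplies Cre recombinase, so the transgenes and the loss of Xpr1 cannot be told apart. Each mouse gave 1 library, and the p-values measure the spread between these libraries.

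In the proximal tubule, amino acids reclaimed from the filtrate can be oxidised in mitochondria and peroxisomes, exported, or used to make arginine, creatine and glucose. Phenylalanine and tyrosine pass through a chain that ends in fumarate and acetoacetate. Leucine, isoleucine and valine share a transaminase and a dehydrogenase complex and then part into separate routes. The kidney is a main site where citrulline is turned into arginine and where the first step of creatine synthesis takes place. XPR1, the protein removed in these mice, exports phosphate from cells.

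Values are library-scaled read counts (CPM) with TMM factors, given in the order KO16, KO18, KO19 and KO20 for cKO mice and C10, C11, C13 and C14 for Control mice. They give RNA levels, and neither protein nor enzyme activity was measured. Differences are log2 fold changes of cKO over Control with their standard error (SE), tested with edgeR's quasi-likelihood test across 15382 genes with Benjamini-Hochberg adjustment and a threshold of 0.05. Xpr1 itself held 5.74, 26.5, 22.00 and 11.98 CPM in cKO kidneys, against 80.2, 126, 108 and 103 CPM in Control kidneys (log2 fold change -2.65, SE 0.44, adjusted p = 0.00491), so each library followed its label, although the count covers the whole gene and not the floxed exon alone. Reads assigned to genes ran from 20366113 to 26155030 per library. All 8 libraries held reads of the Y-linked gene Ddx3y, at 21.7 CPM or more, and at most 0.217 CPM of Xist. Libraries differed in how short and long transcripts were represented: the shortest sixth of genes stood on average 0.955 (KO16), -0.234 (KO18), -0.136 (KO19), 0.488 (KO20), 0.244 (C10), -0.362 (C11), 0.0236 (C13) and 0.0948 (C14) from the mean of the Control libraries on the log2 scale. KO16, KO20 and, less, C10 leaned to short transcripts, and C11, KO18 and, less, KO19 to long ones.

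Most of the genes were lower in cKO kidneys. Of the 44, 33 fell, 1 rose and 10 did not pass the test, where 6.61% of all tested genes fell and 7.5% rose. The median log2 fold change was -1.42 over the 44 and 0.00664 over all genes. In 35 of the 44 every cKO library lay below every Control library, and in 2, Arg2 and Oat, every cKO library lay above, against 11.6% and 11.2% of all tested genes. Together the 44 genes held 5813, 4373, 3944 and 3543 CPM in the cKO libraries, against 12302, 12290.0, 12589 and 12309 CPM in the Control libraries.

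**Figure D1:**
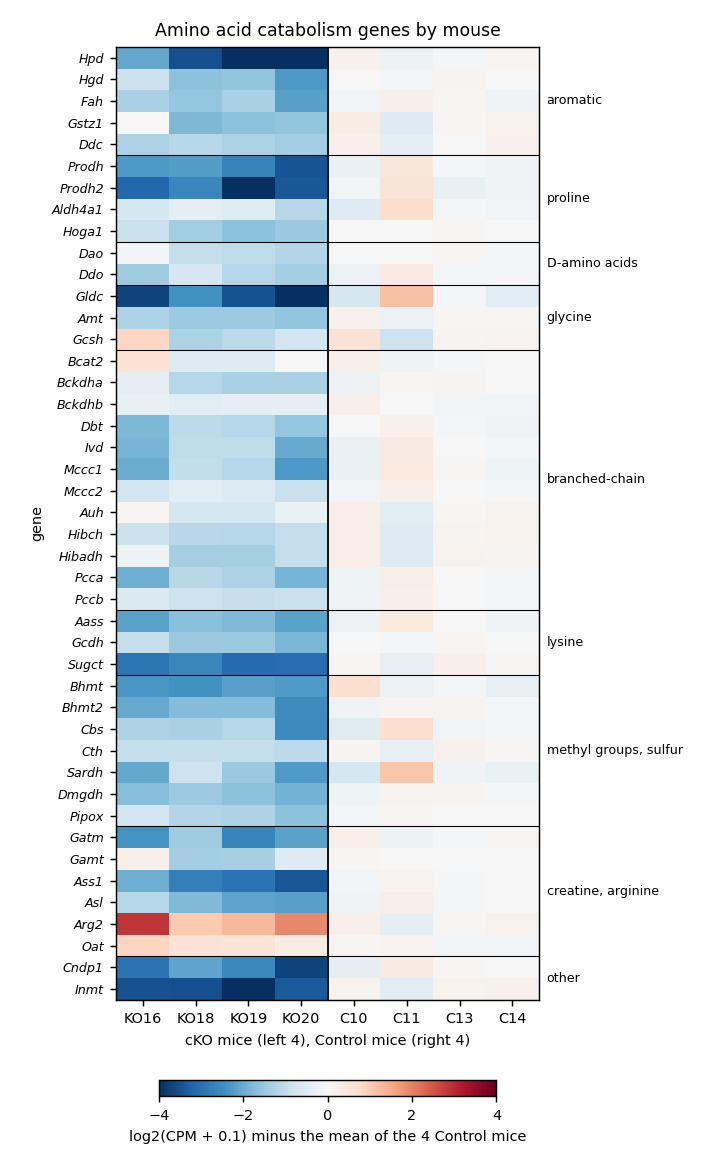
Each row is a gene and each column a mouse, cKO on the left and Control on the right; colour gives log2(CPM + 0.1) minus the mean of the 4 Control mice, and values beyond 4 in size take the darkest shade. Blue fills most of the 4 cKO columns, with Arg2 and Oat in red in all 4 and Gcsh, Bcat2, Auh and Gamt pale red in KO16.

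The start regions of the genes were read from RefSeq. Windows of 300 bases (250 before the transcript start and 50 after, GRCm38.p6) were found for 39 of the 44 genes, 46 windows in all. They were searched on both strands for the letters GTTAAT, the core bound by HNF1 factors, CAAAGTC, a core of HNF4 sites, and AGGTCA, a core shared by many nuclear receptors; none of these overlapped another in the windows shown. GTTAAT was in 6.52% of these windows and in 7.1% of all 32851 windows, CAAAGTC in 4.35% and 4.44%, and AGGTCA in 32.6% and 16.3%. A match is a run of letters and not a shown binding site. The 3 genes that fell and whose windows hold GTTAAT or CAAAGTC are printed 5′ to 3′ with all matches in capitals, followed by Inmt, the gene with the lowest log2 fold change of the 44, whose window holds no match.
Prodh2, chr7:30493408-30493707, plus strand: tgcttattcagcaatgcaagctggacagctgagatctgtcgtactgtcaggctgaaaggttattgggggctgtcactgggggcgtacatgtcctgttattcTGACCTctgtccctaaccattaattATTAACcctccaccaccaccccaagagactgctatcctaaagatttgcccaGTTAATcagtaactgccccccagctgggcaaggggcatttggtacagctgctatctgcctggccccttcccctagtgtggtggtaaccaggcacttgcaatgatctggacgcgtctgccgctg
Hoga1, chr19:42045620-42045919, plus strand: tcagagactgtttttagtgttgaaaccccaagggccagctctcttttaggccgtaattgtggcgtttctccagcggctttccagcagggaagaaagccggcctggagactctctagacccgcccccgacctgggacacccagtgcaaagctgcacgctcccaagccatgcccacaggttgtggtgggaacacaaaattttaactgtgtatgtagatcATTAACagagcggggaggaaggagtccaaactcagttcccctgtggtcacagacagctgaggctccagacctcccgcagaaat
Pipox, chr11:77893823-77894122, minus strand: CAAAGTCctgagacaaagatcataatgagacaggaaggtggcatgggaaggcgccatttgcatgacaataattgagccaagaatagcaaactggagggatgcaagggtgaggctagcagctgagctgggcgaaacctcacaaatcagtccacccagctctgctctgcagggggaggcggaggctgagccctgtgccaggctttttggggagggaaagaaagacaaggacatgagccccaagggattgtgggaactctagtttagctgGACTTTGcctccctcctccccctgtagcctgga
Inmt, chr6:55174941-55175240, minus strand: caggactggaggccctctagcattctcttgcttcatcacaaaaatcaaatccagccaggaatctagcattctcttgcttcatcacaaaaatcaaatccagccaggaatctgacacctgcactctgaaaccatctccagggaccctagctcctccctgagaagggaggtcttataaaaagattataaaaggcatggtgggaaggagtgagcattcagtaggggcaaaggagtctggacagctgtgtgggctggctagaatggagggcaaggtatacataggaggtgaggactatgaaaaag
Prodh2 holds GTTAAT on both strands, at 124 and 73 bases before the start, and AGGTCA on the other strand at 149 bases before it. Hoga1 holds GTTAAT 33 bases before the start, and Pipox holds CAAAGTC at the far end of its window, 250 bases before the start, and again 17 bases after it. Prodh2 and Hoga1 encode the entry step and the aldolase of hydroxyproline breakdown, and both fell, as given below with the proline genes.

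Among the 4 genes of the tyrosine breakdown chain followed here, 3 fell. Hpd, the dioxygenase that makes homogentisate, held 17.1, 6.11, 3.61 and 4.30 CPM in cKO kidneys, against 80.02, 62.2, 68.3 and 74.9 CPM in Control kidneys (log2 fold change -3.21, SE 0.50, adjusted p = 0.00345). KO16 kept more of it than the other cKO libraries, and without KO16 the log2 fold change was -3.93. Hgd, which opens the ring of homogentisate, held 282, 161, 170.2 and 104 CPM in cKO kidneys, against 509.6, 476, 544 and 499.6 CPM in Control kidneys (log2 fold change -1.50, SE 0.30, adjusted p = 0.0108). Fah, the hydrolase that ends the chain, held 153, 128, 150.2 and 81.7 CPM in cKO kidneys, against 347, 432, 381 and 336 CPM in Control kidneys (log2 fold change -1.55, SE 0.25, adjusted p = 0.00406). For these 3 genes the groups did not overlap; KO16 was the highest cKO library in each. Gstz1, the isomerase between Hgd and Fah, was the exception: it held 544, 154, 171 and 179 CPM in cKO kidneys, against 649, 375, 566 and 582 CPM in Control kidneys and did not pass (log2 fold change -1.05, SE 0.43, adjusted p = 0.151). KO16 lay among the Control libraries while the other cKO libraries lay below all of them, and without KO16 Gstz1 was called lower (-1.69, adjusted p = 0.00239). Gstz1 shares 465 exonic bases with Pomt2 on the opposite strand, a gene with 4692 reads over the 8 libraries. Ddc, the decarboxylase that makes dopamine in the proximal tubule, held 31.8, 34.7, 31.4 and 28.9 CPM in cKO kidneys, against 87.2, 58.1, 74.7 and 83.7 CPM in Control kidneys (log2 fold change -1.26, SE 0.20, adjusted p = 0.00386), with cKO libraries within a narrow range below all Control libraries.

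In proline and hydroxyproline breakdown, the genes of the entry steps fell. Prodh, proline dehydrogenase, held 35.2, 36.2, 27.1 and 15.5 CPM in cKO kidneys, against 142, 237, 167 and 155 CPM in Control kidneys (log2 fold change -2.62, SE 0.32, adjusted p = 0.00119). Prodh2, which oxidises hydroxyproline, held 4.14, 5.95, 1.94 and 3.42 CPM in cKO kidneys, against 34.3, 53.02, 30.4 and 33.9 CPM in Control kidneys (log2 fold change -3.29, SE 0.37, adjusted p = 9.03e-04). Neither gene's groups overlapped, and the cKO mean stood at a small share of the Control mean (16.3% for Prodh and 10.2% for Prodh2). Hoga1, the mitochondrial aldolase that splits the hydroxyproline product into pyruvate and glyoxylate, held 132, 92.4, 78.1 and 85.7 CPM in cKO kidneys, against 239, 239.8, 252 and 239 CPM in Control kidneys (log2 fold change -1.32, SE 0.22, adjusted p = 0.00452). The Control libraries of Hoga1 differed by less than the gap to any cKO library. Aldh4a1, the dehydrogenase that acts on both routes after the entry steps, held 121, 151, 142 and 91.02 CPM in cKO kidneys, against 139, 325, 188 and 183 CPM in Control kidneys and did not pass (log2 fold change -0.72, SE 0.30, adjusted p = 0.151). Its groups overlapped, since KO18 and KO19 exceeded C10, and C11 stood well above the rest.

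Of the flavoenzymes that oxidise D-amino acids, Ddo, D-aspartate oxidase, held 16.8, 28.1, 20.3 and 17.5 CPM in cKO kidneys, against 38.01, 56.4, 43.5 and 43.1 CPM in Control kidneys (log2 fold change -1.13, SE 0.24, adjusted p = 0.0139). The groups of Ddo did not overlap, and the call was lost with library totals alone (adjusted p = 0.103). Dao, D-amino acid oxidase, which has the higher level per length (68.5 ± 25.5 CPM per kb in cKO kidneys and 115 ± 3.24 in Control kidneys; SD, n = 4 mice each), held 314, 176, 167 and 152 CPM in cKO kidneys, against 334, 346, 348 and 328 CPM in Control kidneys. All cKO libraries of Dao lay below all Control libraries, KO16 by the least, and the gene did not pass (log2 fold change -0.75, SE 0.26, adjusted p = 0.0968). Without KO16 it was called lower (-1.04, adjusted p = 0.00254), as it was with the length trend removed (-0.84, adjusted p = 0.0212).

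The glycine cleavage system takes glycine apart in mitochondria through 4 proteins, 3 of them among the 44 genes. Gldc, the decarboxylase, held 3.29, 8.19, 3.85 and 1.81 CPM in cKO kidneys, against 27.5, 99.5, 42.7 and 32.5 CPM in Control kidneys (log2 fold change -3.55, SE 0.58, adjusted p = 0.00435). C11 held more Gldc than any other library, and still all cKO libraries lay below all Control libraries; without KO16, KO20 and C11 the log2 fold change was -2.55. Amt, the aminomethyltransferase, held 39.2, 33.1, 33.3 and 30.5 CPM in cKO kidneys, against 103, 77.5, 93.7 and 93.5 CPM in Control kidneys (log2 fold change -1.43, SE 0.19, adjusted p = 0.00170), with tight groups. Gcsh, the carrier protein that shuttles the intermediate, held 296, 70.2, 78.6 and 99.04 CPM in cKO kidneys, against 248, 95.1, 179.8 and 185 CPM in Control kidneys and did not pass (log2 fold change -0.38, SE 0.49, adjusted p = 0.679). Its groups overlapped widely, KO16 being the highest library of all and C11 the lowest Control library. Without KO16, the change of Gcsh was -1.10 (adjusted p = 0.0493). Gcsh is the shortest of these 3 genes (1579 exonic bases, against 2437 for Amt and 6091 for Gldc), and KO16 is the library that leaned most to short transcripts. With the length trend removed, the log2 fold change of Gcsh was -0.80 (adjusted p = 0.0635). Whether this lean is the cause was not tested.

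Among the 12 branched-chain genes 8 fell, 0 rose and 4 did not pass, with a median log2 fold change of -0.94. Bcat2, the mitochondrial transaminase that starts the breakdown of all 3 amino acids, held 107, 50.5, 50.99 and 71.3 CPM in cKO kidneys, against 83.6, 64.5, 70.4 and 72.7 CPM in Control kidneys. The groups overlapped and it did not pass (log2 fold change -0.06, SE 0.27, adjusted p = 0.924). Its sign turned with upper-quartile factors, with library totals alone, and without C10, KO18, KO19 or KO20, whereas leaving out KO16, KO20 and C11 gave a call of lower (-0.61, adjusted p = 0.00129). In the dehydrogenase complex that follows, Dbt, the acyltransferase core, held 40.5, 68.4, 64.7 and 47.8 CPM in cKO kidneys, against 143, 158, 136 and 129 CPM in Control kidneys (log2 fold change -1.36, SE 0.22, adjusted p = 0.00465). Bckdha, the E1 alpha subunit, held 238, 139, 123 and 124 CPM in cKO kidneys, against 264, 324, 329 and 310.2 CPM in Control kidneys (log2 fold change -0.98, SE 0.26, adjusted p = 0.0358). KO16 stood above the other cKO libraries for Bckdha, and the call was lost without C10 (0.0633), C11 (0.0655), C13 (0.107), C14 (0.0953), KO18 (0.0729), KO19 (0.0900) and KO20 (0.197). It was also lost with RLE factors (0.0649), upper-quartile factors (0.0800) and library totals alone (0.0535). The E1 beta subunit gene Bckdhb held 31.7, 29.1, 29.7 and 30.8 CPM in cKO kidneys, against 45.05, 39.5, 36.6 and 36.2 CPM in Control kidneys and did not pass (log2 fold change -0.38, SE 0.18, adjusted p = 0.209), although its cKO libraries lay just below all Control libraries.

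Of the leucine genes after the complex, Ivd, Mccc1 and Mccc2 fell and Auh did not pass. Ivd, isovaleryl-CoA dehydrogenase, held 135, 246, 247 and 121 CPM in cKO kidneys, against 409, 637, 491 and 469.7 CPM in Control kidneys (log2 fold change -1.42, SE 0.30, adjusted p = 0.0143). Mccc1, the biotin-carrying subunit of methylcrotonyl-CoA carboxylase, held 43.2, 88.3, 77.6 and 35.01 CPM in cKO kidneys, against 143, 228, 179 and 153 CPM in Control kidneys (log2 fold change -1.53, SE 0.33, adjusted p = 0.0156). For both genes KO16 and KO20 were the lowest libraries and C11 the highest, and both calls were lost with library totals alone (adjusted p = 0.0777 for Ivd and 0.0754 for Mccc1). Mccc2, the other subunit of the carboxylase, held 56.6, 70.1, 65.4 and 51.8 CPM in cKO kidneys, against 88.5, 113, 94.1 and 90.2 CPM in Control kidneys (log2 fold change -0.66, SE 0.19, adjusted p = 0.0481). Its change was the smallest among the genes that passed, and the call was lost without C10 (0.0915), C11 (0.0941), C13 (0.129), C14 (0.112), KO18 (0.0553), KO19 (0.0887) and KO20 (0.160), and also with upper-quartile factors, library totals alone, no filter, a mean of at least 1 CPM, the length trend removed, or without KO16 and KO20. Auh, the hydratase of the next step, held 105, 61.1, 60.99 and 82.8 CPM in cKO kidneys, against 119, 73.6, 102 and 110.0 CPM in Control kidneys with overlapping groups and did not pass (log2 fold change -0.38, SE 0.25, adjusted p = 0.377).

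On the valine and isoleucine side, Hibch, which frees hydroxyisobutyrate from CoA, held 60.4, 51.3, 50.1 and 57.1 CPM in cKO kidneys, against 133, 77.1, 119 and 120.0 CPM in Control kidneys (log2 fold change -1.04, SE 0.22, adjusted p = 0.0134). Its call was lost without C13 (0.0527), C14 (0.0503) and KO20 (0.0619) and with the length trend removed (0.0525). Hibadh, the dehydrogenase after it, held 739.8, 337, 339 and 433 CPM in cKO kidneys, against 1014, 586, 934 and 919.6 CPM in Control kidneys and did not pass (log2 fold change -0.90, SE 0.32, adjusted p = 0.0970). KO16 lay above C11 here, so the groups overlapped, and without KO16 the call was lower (-1.22, adjusted p = 0.0103). Propionyl-CoA, the shared product, is carboxylated by an enzyme of alpha and beta chains. Pcca, the alpha chain, held 37.1, 66.1, 59.6 and 39.3 CPM in cKO kidneys, against 128, 167, 145 and 136 CPM in Control kidneys (log2 fold change -1.51, SE 0.25, adjusted p = 0.00444). Pccb, the beta chain, held 194, 160.1, 152 and 154 CPM in cKO kidneys, against 262, 329, 287 and 274 CPM in Control kidneys (log2 fold change -0.80, SE 0.19, adjusted p = 0.0219), and its call was lost without C10 (0.0507), C13 (0.0790), C14 (0.0671), KO19 (0.0642) and KO20 (0.124), with upper-quartile factors (0.0540) and with library totals alone (0.101). Neither chain's groups overlapped. Pcca shares 241 exonic bases with Ggact on the opposite strand, a gene with 15899 reads over the 8 libraries that moved by -0.54 on the log2 scale (adjusted p = 0.44).

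All 3 lysine genes fell. Aass, the bifunctional enzyme that opens the saccharopine route, held 117, 164, 153 and 119 CPM in cKO kidneys, against 438, 683, 527 and 463 CPM in Control kidneys (log2 fold change -1.93, SE 0.24, adjusted p = 0.00123). Gcdh, glutaryl-CoA dehydrogenase, held 249.9, 175, 173 and 138 CPM in cKO kidneys, against 488, 468, 521 and 481 CPM in Control kidneys (log2 fold change -1.41, SE 0.23, adjusted p = 0.00420). Sugct, which returns free glutarate to its CoA form, held 18.7, 23.4, 16.7 and 17.2 CPM in cKO kidneys, against 148, 114, 163 and 147 CPM in Control kidneys (log2 fold change -2.91, SE 0.22, adjusted p = 2.15e-04). None of the 3 had groups that overlapped, and Sugct fell furthest, to 13.3% of the Control mean, against 37.6% for Gcdh. Sugct shares 196 exonic bases with Mplkip on the opposite strand (2903 reads over the 8 libraries, log2 fold change -0.13).

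**Figure D2:**
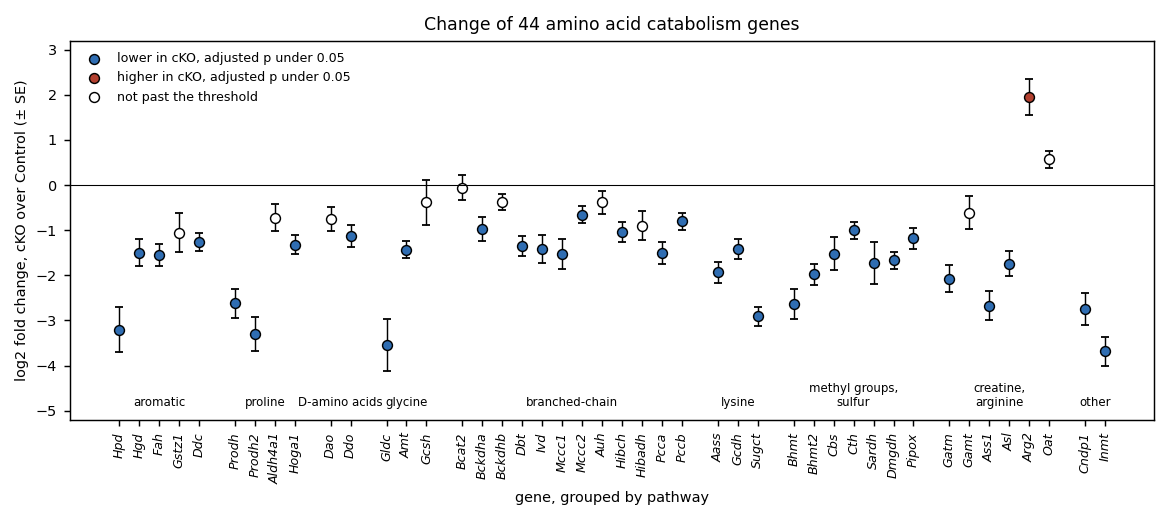
Points give the log2 fold change of cKO over Control for each of the 44 genes with bars of ± 1 SE, grouped by pathway; filled points passed an adjusted p of 0.05 and open points did not. The 33 blue points run from -0.66 (Mccc2) to -3.69 (Inmt), and Arg2 at 1.95 is the red one.

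Of the 44 genes, 7 handle methyl groups and sulfur, and all 7 fell with groups that did not overlap. Bhmt and Bhmt2, neighbouring paralogs that remethylate homocysteine with betaine or with S-methylmethionine, lie on chromosome 13 from 93616675 to 93637961 and from 93655720 to 93674302 (GRCm38). Bhmt2 held 34.9, 42.97, 42.4 and 24.5 CPM in cKO kidneys, against 128, 154, 152 and 135 CPM in Control kidneys (log2 fold change -1.97, SE 0.23, adjusted p = 0.00102). Bhmt, abundant in liver, was scarce in these kidneys at 0.319, 0.288, 0.364 and 0.337 CPM in cKO kidneys, against 3.18, 1.68, 1.87 and 1.55 CPM in Control kidneys (35 reads over the 4 cKO libraries and 186 over the 4 Control libraries; log2 fold change -2.64, SE 0.33, adjusted p = 0.00140). The files count reads that align to several places apart from the genes, so how far the counts of these paralogs cover each is uncertain. Per length the levels were 14.7 ± 3.51 CPM per kb in cKO kidneys and 57.7 ± 5.12 in Control kidneys for Bhmt2, and 0.0568 ± 0.00553 CPM per kb in cKO kidneys and 0.360 ± 0.131 in Control kidneys for Bhmt (SD, n = 4 mice each).

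Next to them on chromosome 13 (93674433 to 93752833) lies Dmgdh, which strips a methyl group from the dimethylglycine that betaine leaves behind. It held 49.8, 59.8, 51.96 and 44.03 CPM in cKO kidneys, against 143, 179, 174 and 155 CPM in Control kidneys (log2 fold change -1.66, SE 0.19, adjusted p = 9.33e-04). Sardh, which acts on the next product, sarcosine, held 32.3, 74.7, 47.1 and 27.3 CPM in cKO kidneys, against 81.8, 285, 122 and 111 CPM in Control kidneys (log2 fold change -1.72, SE 0.46, adjusted p = 0.0359). C11 was far above all other libraries for Sardh, and the call was lost without C11 (0.0657), C13 (0.0720), C14 (0.0613), KO16 (0.0722), KO19 (0.0739) and KO20 (0.106), with library totals alone (0.0964) and without KO16 and KO20 (0.150). Without KO16, KO20 and C11 the log2 fold change of Sardh was -0.82. Pipox, the peroxisomal oxidase of sarcosine and pipecolate whose promoter window is printed above, held 284, 216, 205 and 155 CPM in cKO kidneys, against 476, 501, 495 and 483 CPM in Control kidneys (log2 fold change -1.18, SE 0.23, adjusted p = 0.00878). The Control libraries of Pipox stood close together, and without KO20 the adjusted p was 0.0505.

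The genes of both enzymes of transsulfuration, which turns homocysteine into cysteine, fell as well. Cbs, cystathionine beta-synthase, held 75.5, 71.8, 79.6 and 30.2 CPM in cKO kidneys, against 126, 283, 162 and 168 CPM in Control kidneys (log2 fold change -1.52, SE 0.36, adjusted p = 0.0231), with KO20 apart from the other cKO libraries and the call lost without C13 (0.0561), C14 (0.0547) and KO20 (0.0524) and with library totals alone (0.0692). Cth, cystathionine gamma-lyase, held 117, 115, 115 and 109 CPM in cKO kidneys, against 243, 180.1, 255 and 232 CPM in Control kidneys (log2 fold change -0.996, SE 0.19, adjusted p = 0.00852). The cKO libraries of Cth lay within a few CPM of each other, all below the lowest Control library, C11.

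The arginine genes parted in direction. Ass1 and Asl, the enzymes that build arginine from citrulline and aspartate, fell: Ass1 held 301, 176, 153 and 111 CPM in cKO kidneys, against 1086, 1288, 1146 and 1195 CPM in Control kidneys (log2 fold change -2.67, SE 0.32, adjusted p = 0.00119). Asl held 93.4, 60.7, 48.1 and 45.98 CPM in cKO kidneys, against 185, 241, 199 and 202 CPM in Control kidneys (log2 fold change -1.74, SE 0.27, adjusted p = 0.00339). Every cKO library had less of either gene than every Control library, and KO16 had the most among the cKO libraries. Arg2, the mitochondrial arginase that splits arginine into ornithine and urea, rose: it held 57.97, 16.6, 19.9 and 30.5 CPM in cKO kidneys, against 9.21, 6.06, 8.26 and 8.78 CPM in Control kidneys (log2 fold change 1.95, SE 0.40, adjusted p = 0.0122). KO16 and KO20 were the highest for Arg2, and all cKO libraries exceeded all Control libraries. The log2 fold change of Arg2 was 1.17 without KO16 and KO20 (adjusted p = 0.0137) and 1.02 without KO16, KO20 and C11 (adjusted p = 1.65e-04). Arg2 is a short transcript here, with 1428 exonic bases, and shares 285 exonic bases with Vti1b on the opposite strand (27634 reads over the 8 libraries, log2 fold change 0.615, adjusted p = 0.416). Oat, which passes ornithine on towards glutamate and proline, held 260.2, 212, 202 and 173 CPM in cKO kidneys, against 147, 159, 133 and 133 CPM in Control kidneys and did not pass (log2 fold change 0.57, SE 0.20, adjusted p = 0.0937). The cKO libraries of Oat nevertheless lay above all Control libraries, and it was called higher with upper-quartile factors (adjusted p = 0.0483), with library totals alone (0.0153), which moved the median of all genes to 0.14 and 0.34, and without KO16 and KO20 together (0.0423).

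Creatine synthesis starts with Gatm, which joins arginine and glycine to form guanidinoacetate in kidney mitochondria. Gatm held 186, 363, 157 and 219 CPM in cKO kidneys, against 1115, 839.8, 941 and 998 CPM in Control kidneys (log2 fold change -2.07, SE 0.30, adjusted p = 0.00240). KO18 kept the most of it, and no cKO library reached the lowest Control library. Gamt, the methyltransferase that completes creatine, mainly in liver, was low in both groups at 17.1, 5.53, 5.73 and 10.2 CPM in cKO kidneys, against 15.3, 14.5, 14.3 and 14.4 CPM in Control kidneys and did not pass (log2 fold change -0.61, SE 0.36, adjusted p = 0.320). KO16 exceeded all Control libraries for Gamt while the other cKO libraries lay below them, and without KO16 the log2 fold change was -1.03 (adjusted p = 0.0278). Gamt was also called lower with the length trend removed (-1.06, adjusted p = 0.00438) and without KO16 and KO20 (-1.38, adjusted p = 0.00329).

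**Figure D3:**
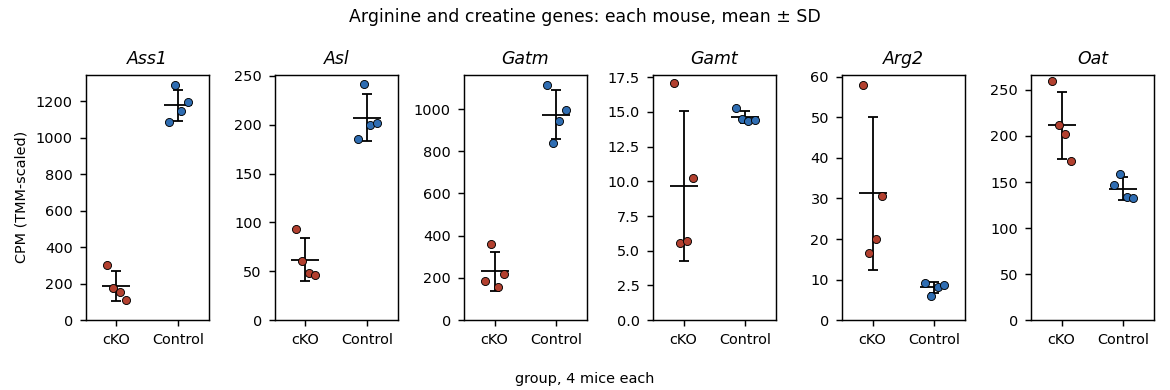
Points are single mice, in CPM on linear axes from 0, with cKO in red on the left and Control in blue on the right of each panel; bars give the mean ± SD (n = 4 mice each). Ass1, Asl and Gatm are low in all cKO mice, Arg2 and Oat are high in all of them, and the cKO mice of Gamt spread on both sides of the Control mice.

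Inmt and Cndp1 both fell. Inmt, which methylates indolethylamines such as tryptamine, held 128, 125, 60.8 and 139.9 CPM in cKO kidneys, against 1594, 1056, 1584 and 1608 CPM in Control kidneys (log2 fold change -3.69, SE 0.33, adjusted p = 4.21e-04), so that the cKO mean was 7.77% of the Control mean. Cndp1, a dipeptidase that cleaves carnosine, held 11.1, 19.8, 14.3 and 6.45 CPM in cKO kidneys, against 66.3, 108, 87.8 and 85.2 CPM in Control kidneys (log2 fold change -2.75, SE 0.35, adjusted p = 0.00152). Neither gene's groups overlapped; C11 had the least Inmt and the most Cndp1 of the Control libraries.

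Levels per kilobase of exon were used to order the genes, with the union of all annotated exons of a gene as its length. That union can be longer than the transcripts present, so the order holds for this measure alone. Hibadh, for example, averaged 863 CPM in Control kidneys, but with 10179 exonic bases it stood at 84.8 CPM per kb there. In Control kidneys Inmt stood first, Ass1 next and Gatm after it, each apart from the next beyond its spread: Inmt averaged 70.9 ± 22.3 CPM per kb in cKO kidneys and 913 ± 169 in Control kidneys, Ass1 76.8 ± 33.9 CPM per kb in cKO kidneys and 488 ± 35.4 in Control kidneys, and Gatm 77.1 ± 30.4 CPM per kb in cKO kidneys and 324 ± 38.2 in Control kidneys (SD, n = 4 mice each). In cKO kidneys these levels lay close together and within each other's spread, and Oat had the highest mean at 89.7 ± 15.4 CPM per kb, against 60.5 ± 5.18 in Control kidneys. Pipox followed in cKO kidneys, with 87.2 ± 21.6 CPM per kb in cKO kidneys and 198 ± 4.61 in Control kidneys. The next in the order of Control kidneys, Hgd, had 68.5 ± 28.4 CPM per kb in cKO kidneys and 194 ± 10.7 in Control kidneys, which did not differ from Pipox beyond the spread in Control kidneys. Bhmt was lowest in both groups; Ddo was the next lowest in Control kidneys, and Gldc in cKO kidneys. Ddo had 2.32 ± 0.581 CPM per kb in cKO kidneys and 5.07 ± 0.876 in Control kidneys, and Gldc had 0.704 ± 0.450 CPM per kb in cKO kidneys and 8.30 ± 5.46 in Control kidneys.

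**Figure D4:**
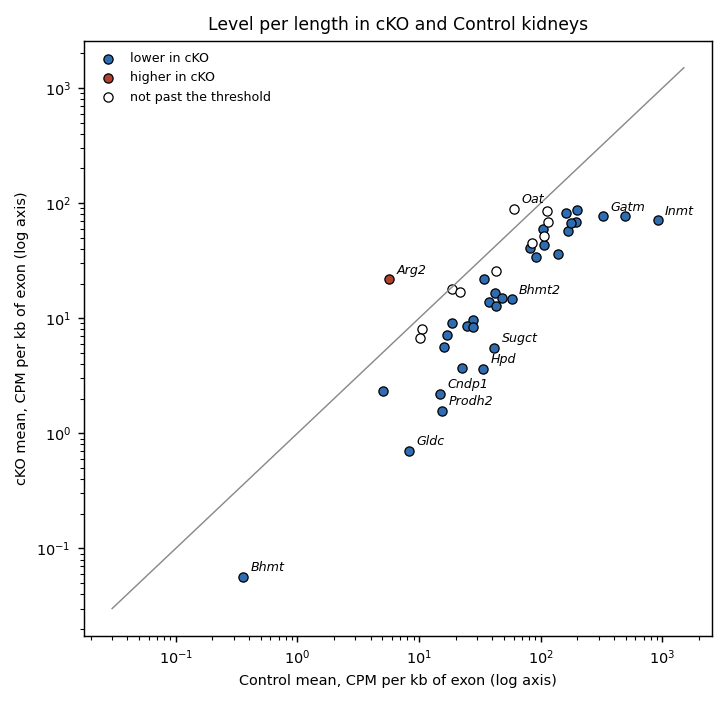
Each point is a gene, with its mean level per kilobase of exon in cKO kidneys on the y axis and in Control kidneys on the x axis, both log axes; the grey line marks equal levels. The blue points, which fell, lie below the line, with Inmt, Gldc, Prodh2 and Hpd among the farthest from it; Arg2 and Oat lie above it.

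Whether 2 enzymes of a pathway changed unequally was asked from their log2 ratio within each mouse, for 10 pairs, with a two-sided exact permutation test (the smallest p for 4 against 4 is 0.0286) adjusted over the 10 pairs. None passed. After adjustment, a pair with the smallest p of 0.0286 could pass only if most of the 10 pairs reached that p. The test could therefore not call a pair on its own, and it does not show that the enzymes of a pair changed equally. In 3 pairs the groups of ratios did not overlap, each with this smallest exact permutation p = 0.0286 and adjusted p = 0.0952. The Ass1 to Asl ratio was 1.54 ± 0.19 in cKO kidneys and 2.51 ± 0.07 in Control kidneys (SD, n = 4 mice each; difference -0.97). The Mccc1 to Mccc2 ratio was -0.09 ± 0.45 in cKO kidneys and 0.85 ± 0.15 in Control kidneys (difference -0.94), and the Pcca to Pccb ratio -1.74 ± 0.53 in cKO kidneys and -1.003 ± 0.02 in Control kidneys (difference -0.74). In the Mccc1 to Mccc2 and Pcca to Pccb pairs the gene named first has the larger union of annotated exons. These unions are 10952 against 2802 bases for Mccc1 and Mccc2, and 5210 against 2771 for Pcca and Pccb. The transcripts present may be shorter than these unions, and the length trend was taken over the same unions. Their ratios were lowest in KO16 and KO20, the libraries that leaned to short transcripts. With the length trend removed, the log2 fold changes were -1.38 for Mccc1, -0.72 for Mccc2, -1.44 for Pcca and -0.89 for Pccb. Whether that lean is the cause of the unequal ratios was not tested. The Gatm to Gamt ratio (-1.38) and the Bckdha to Bckdhb ratio (-0.66) each had an adjusted p of 0.114. For Prodh and Prodh2 it was 0.19 (0.68), for Bhmt and Bhmt2, Cbs and Cth, and Dao and Ddo 0.444 each (-0.34, -0.57 and 0.33), and for Sardh and Dmgdh 1.0. Bhmt had only 35 reads over the 4 cKO libraries, so the prior count of 2 makes the difference in its ratio smaller. The log2 fold changes from edgeR were -2.64 for Bhmt and -1.97 for Bhmt2.

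**Figure D5:**
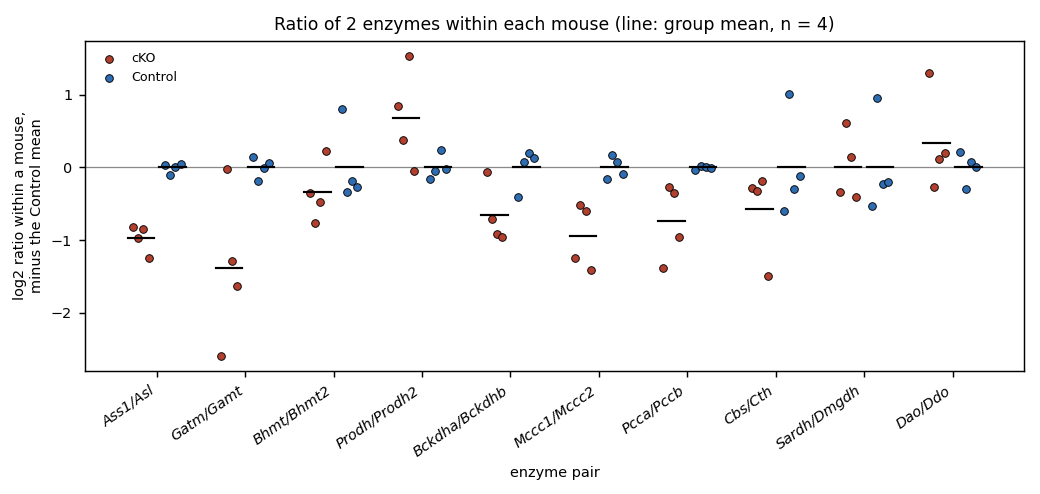
The y axis gives the log2 ratio of the 2 enzymes named below, within each mouse, minus the Control mean of that pair; red points are cKO mice, blue points Control mice and lines the group means (n = 4 each). Ass1/Asl, Mccc1/Mccc2 and Pcca/Pccb have red points that all lie below the blue ones.

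The cKO libraries did not shift alike. Relative to the Control mean, the median of the 44 genes stood at -1.22 in KO16, -1.31 in KO18, -1.31 in KO19 and -1.74 in KO20 on the log2 scale, and between -0.03 and 0.06 in the Control libraries. Below every Control library lay 36, 41, 41 and 39 of the 44 genes in KO16, KO18, KO19 and KO20, where 43.2%, 25.9%, 24.3% and 36.8% of all tested genes did. KO20 was the lowest cKO library for 22 genes and the highest for 1, whereas KO16 was the lowest for 4 and the highest for 23. Without KO16, 37 of the 44 fell, where 8.52% of all genes tested fell; the added genes were Gstz1, Dao, Gcsh, Hibadh and Gamt, and Sardh was lost. Without KO16, KO20 and C11 together, 41 fell and 2 rose, where 28.2% of all genes tested fell and 29.5% rose.

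Genes of the same pathways that are not among the 44 fell in part. From a list of 85, 83 were found and 71 tested: 26 fell, 1 rose and 44 did not pass, with a median log2 fold change of -0.64. Of all tested genes, 6.61% fell and 7.5% rose. With a single library left out, the count of the other pathway genes that fell lay between 13 (without KO20) and 32 (without KO16). It was 15 without C13 and 16 without C14. The share of all genes that fell without KO20, C13 or C14 is not given here. Whether these lower counts are particular to the pathway genes therefore cannot be told. Without KO16, 8.52% of all genes tested fell. Agxt2, a mitochondrial aminotransferase for beta-aminoisobutyrate and methylated arginines, fell to 14.5% of the Control mean (log2 fold change -2.79, SE 0.20, adjusted p = 2.15e-04). Odc1, which turns ornithine into the polyamine putrescine, held 281, 162, 208 and 197 CPM in cKO kidneys, against 2515, 1434, 2138 and 1487 CPM in Control kidneys (log2 fold change -3.16, SE 0.30, adjusted p = 5.19e-04). All cKO libraries of Odc1 lay far below all Control libraries. Acy3, an acylase for N-acetylated aromatic amino acids, fell by 2.44 (log2), Acat1, the last thiolase of isoleucine breakdown, by 1.49 and Hao2, a peroxisomal hydroxy acid oxidase, by 1.73 (adjusted p = 8.10e-04, 0.00187 and 0.00228). The gene that rose was Aldh18a1, which makes the precursor of proline and ornithine from glutamate, at 8.18, 6.53, 6.54 and 3.84 CPM in cKO kidneys, against 2.07, 2.73, 2.13 and 2.22 CPM in Control kidneys (log2 fold change 1.45, SE 0.27, adjusted p = 0.00833).

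By route, 6 of 7 tested lysine genes outside the 44 fell, among them Aldh7a1 and Dhtkd1, and 9 of 22 genes of methyl groups and sulfur, among them Mat2a, which makes S-adenosylmethionine (-1.24, adjusted p = 0.00536), and Ahcy, whose call was lost without KO20 (0.0834). Of 15 branched-chain genes 4 fell and 11 did not pass. Of 8 aromatic genes 1 fell and 7 did not pass, with a median log2 fold change of -0.14, and of 2 histidine genes 0 passed. Of 5 proline genes 2 fell and Aldh18a1 rose, and of 5 peptidase and acylase genes 2 fell. Of 7 arginine and creatine genes Odc1 and Ddah1 fell; Ddah1 lost its call without C10 (0.0581), C11 (0.0856), C13 (0.0870), C14 (0.0770), KO16 (0.0541), KO19 (0.0517) and KO20 (0.106), with library totals alone (0.166) and without KO16 and KO20 (0.0931). Arg1, Otc and Cps1, enzymes of the liver urea cycle, had at most 0.372 CPM in any library and were not tested.

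These changes came with others in the tissue. Of 10 proximal tubule markers 7 fell, and their summed level was 1632 to 3774 CPM in cKO libraries, against 6550.0 to 15267 CPM in Control libraries. Cubn, Slc4a4 and the water channel gene Aqp1 (log2 fold change -0.21, SE 0.21, adjusted p = 0.582) did not pass. Hnf4a, Lrp2 and Slc5a2 lost their calls when some single libraries were left out. Among 5 markers of the straight segment 3 fell (682 to 1305 CPM in cKO libraries, against 3613 to 4121 CPM in Control libraries). Acy3 is on this list and among the other pathway genes, and Slc22a7 lost its call without C10 (0.0693), C13 (0.0873), C14 (0.0729), KO18 (0.0618), KO19 (0.0648) and KO20 (0.0709).

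Markers of the thick ascending limb overlapped between groups and 0 of 4 passed (3374 to 5180.0 CPM in cKO libraries, against 3412 to 4123 CPM in Control libraries). Those of the distal convoluted tubule overlapped too, and 0 of 3 passed (151 to 374 CPM in cKO libraries, against 249 to 817 CPM in Control libraries). Of 5 collecting duct markers Aqp2 rose, Aqp3 fell and 3 did not pass. Their summed level did not overlap (335 to 570.1 CPM in cKO libraries, against 286 to 313 CPM in Control libraries). Aqp2 lost its call without C13 (0.0527), and Aqp3 without C13 (0.0594), C14 (0.0530), KO19 (0.0634) and KO20 (0.0901).

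The 4 tested markers of injured tubules rose (196 to 589 CPM in cKO libraries, against 12.4 to 45.2 CPM in Control libraries), and Sox9 was not tested. Krt20 lost its call without C10 (0.0582), C13 (0.0854), C14 (0.0951), KO16 (0.0545) and KO20 (0.0617). Of 5 macrophage markers 4 rose, and their sum was highest in KO16 and KO20 (210.1 to 792 CPM in cKO libraries, against 92.6 to 103 CPM in Control libraries). Cd68 lost its call without C13 (0.0573) and C14 (0.0528). Of 4 fibroblast markers 2 rose (196 to 325 CPM in cKO libraries, against 87.05 to 148 CPM in Control libraries), and Dcn lost its call without C13 (0.0710). None of 4 podocyte markers passed (67.9 to 159 CPM in cKO libraries, against 128 to 323 CPM in Control libraries). None of 4 endothelial markers passed, although their summed level did not overlap (161 to 186 CPM in cKO libraries, against 221 to 276 CPM in Control libraries). Lymphocyte markers summed to at most 5.42 CPM in any library. Of 4 liver markers Alb and Ttr fell (36.3 to 132 CPM in cKO libraries, against 232 to 439 CPM in Control libraries over the list). Alb held 0.213, 0.928, 0.788 and 0.464 CPM in cKO kidneys, against 6.66, 17.8, 6.43 and 5.72 CPM in Control kidneys. In whole kidney, fewer cells of a type and less RNA per cell cannot be told apart. The part of these shifts in the results for the 44 genes was not tested.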

How the data were processed

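Whole-kidney RNA (500 ng per library, stranded mRNA kit, per the labels' protocols) from 4 cKO and 4 Control mice was used. Per the submitters' processing notes the tools were cutadapt 1.3, STAR 2.4.0g and HTSeq 0.6.1 on GRCm38 (strand setting, annotation release and filters: not given in the sources used here). What the authors deposited are raw read counts, in whole numbers, listed by Ensembl identifier. Closing lines that name no gene (39.7% to 56.2% of each file) were left out. Symbols and exon lengths (union of exons) came from GENCODE vM21, which matched 46005 of 46517 identifiers. Of the 44 genes, 30 share no exonic base with another gene and 14 do. The largest overlap was that of Aldh4a1, with 1595 of 4907 bases shared with Gm21969 on the same strand. Bckdha shares 1171 of 1899 bases with B3gnt8, and Bcat2 shares 622 of 3900 with 0610005C13Rik, both on the opposite strand. How far such overlaps changed the counts was not tested.

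All 8 libraries entered the quasi-likelihood F test of edgeR 4.0.16 in R 4.3.3, which was checked on simulated data; no covariate was used. Genes were kept by filterByExpr, with at least 10 reads in enough libraries and 15 in all, and scaled by TMM. The SE is the log2 fold change divided by the root of F. CPM values are TMM-scaled, and log2 CPM in ratios used a prior count of 2. The spread between mice, with a common biological coefficient of variation of 0.386, sets the precision. Control mice were littermates, but the litter of each mouse is not given, so mice were not paired and litter was not modelled. The 44 genes, the other lists and the alternatives were chosen with earlier results of these data known. Named are Xpr1, the 44 genes, the 6 other pathway genes with the smallest p in each direction, and markers by list; 1 gene that this rule names is not reported here, and others named beside these were chosen after their values were seen. Alternatives were other factors, other filters, DESeq2 1.42.0, limma-voom (limma 3.58.1), leaving out libraries, and a length trend removed.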

Additional observations from a re-analysis of the deposited data

Results flagged for a closer look

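In a group of 4 mice, a library was marked when its gap to the nearest other, as a share of the group's range, exceeded Dixon's critical value at the 95% level. Chance marks about 1 in 20 groups; 88 groups were looked at and 7 were marked. KO16 stood above the other cKO libraries in 4 of them. Gstz1 held 544 CPM, with the others at 154 to 179 CPM. Dao held 314 CPM, with the others at 152 to 176 CPM. Gcsh held 296 CPM, with the others at 70.2 to 99.04 CPM. Bckdha held 238 CPM, with the others at 123 to 139 CPM. KO20 stood below the other cKO libraries once, where Cbs held 30.2 CPM, with the others at 71.8 to 79.6 CPM. Among the Control libraries C11 stood below the others where Inmt held 1056 CPM, with the others at 1584 to 1608 CPM. C13 stood above the others where Hoga1 held 252 CPM, with the others at 239 to 239.8 CPM, a narrow range.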

How the results depend on the processing

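Of the 44 genes, 33 fell, where 6.61% of all tested genes fell. The count was 41 without KO16, KO20 and C11, where 28.2% of all genes tested fell. It was 25 with library totals alone. With a single library left out it was 26 (without KO20) to 37 (without KO16, where 8.52% of all genes tested fell). For the alternatives other than these without KO16 or without KO16, KO20 and C11, the share of all genes called is not given here. Whether a count that moves under them is particular to the genes counted therefore cannot be told, here or for the other pathway genes below. Of the 34 genes called, 24 kept their call under all 18 alternatives and 0 changed direction. Library totals alone moved the median of all genes to 0.34, and the median of the 44 genes was then -1.07. The count of the 44 that rose was 2, Oat being added, with upper-quartile factors, with library totals alone and without KO16 and KO20. It was also 2 without KO16, KO20 and C11, where 29.5% of all genes tested rose. Bcat2, which did not pass, had a log2 fold change of 0.10 with upper-quartile factors, 0.22 with library totals alone, and -0.34 to 0.0683 when a single library was left out; it was -0.53 without KO16 and KO20 and -0.61, called lower, without KO16, KO20 and C11. Of the other pathway genes, 26 fell, with 13 to 32 when a single library was left out. The count was 48 without KO16, KO20 and C11, where 28.2% of all genes tested fell. The count of the other pathway genes that rose was 4 with library totals alone and 2 with DESeq2 and with the length trend removed. It was 1 to 2 when a single library was left out. Without KO16, KO20 and C11 it was 3, where 29.5% of all genes tested rose. The difference in the Sardh to Dmgdh ratio was 0.69 without KO16, KO20 and C11. The cause was not tested for any of these, beyond the fewer mice in the fits that leave libraries out. With 4 mice a group and the spread between the cKO libraries, small changes may be missed; depth limits Bhmt, which had few reads.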

Other observations

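Outside the enzymes, the largest log2 fold changes among the marker genes were those of Havcr1, a tubule injury marker (KIM-1), and Krt20, whose call was lost without C10 (0.0582), C13 (0.0854), C14 (0.0951), KO16 (0.0545) and KO20 (0.0617) and without KO16 and KO20 (0.0823). Havcr1 held 393, 111, 165 and 138 CPM in cKO kidneys, against 2.46, 20.6, 1.35 and 1.46 CPM in Control kidneys (log2 fold change 4.96, SE 1.02, adjusted p = 0.0122). Lcn2, a secreted injury marker, held 72.7, 31.6, 41.5 and 56.5 CPM in cKO kidneys, against 1.83, 6.98, 1.22 and 1.73 CPM in Control kidneys (log2 fold change 4.10, SE 0.60, adjusted p = 0.00268). Slc34a1, the main phosphate importer of the proximal tubule, held 418, 866, 492 and 222 CPM in cKO kidneys, against 2125, 6768, 2856 and 2536 CPM in Control kidneys (log2 fold change -2.84, SE 0.52, adjusted p = 0.00736). For these 3 genes the groups did not overlap, and KO16 was the highest cKO library for Havcr1. Hnf4a, a transcription factor of proximal tubule cells, fell too (log2 fold change -1.55, SE 0.41, adjusted p = 0.0363), but its call was lost without C10 (0.0565), C11 (0.0773), C13 (0.0927), C14 (0.0820), KO16 (0.0549) and KO20 (0.0739) and with library totals alone (0.126).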
